A study of Rattus norvegicus with 13 samples.

Results

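The enzymes of the methionine and homocysteine cycle were examined as mRNA in the left ventricle of pregnant rats. The 10 genes were Mat1a, Mat2a, Ahcy, Gnmt, Mtr, Mtrr, Bhmt, Cbs, Cth and Mthfd1. They were taken as the probe sets whose single gene symbol was one of these names, which gave 13 of the 31042 probe sets tested and 10 of the 14217 genes that had a probe set with a single symbol. Mat2a was read by 3 probe sets, Mtrr by 2 and each of the other genes by 1, and 0 probe sets with several symbols held a member. A probe set is a group of short probes against one transcript, and where a gene had several the brightest is given first.

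In total 13 arrays were measured, all from female Sprague Dawley rats in pregnancy that were kept on standard chow. The Met-fed group (4 arrays) drank water with L-methionine at 9 g/L, which the study used to raise homocysteine. The L-NAME-fed group (4 arrays) drank water with L-NAME, an inhibitor of nitric oxide synthases, at 1 g/L, and the control group (5 arrays) drank plain water. By the labels, treatment ran over days 1 to 20 of pregnancy and hearts were taken on day 20 or 21. The labels do not say whether each array came from a separate rat, so the tests measure the spread between these samples. The labels do not mention parity, while the study describes repeatedly mated rats. In the study methionine was given from the start of the first pregnancy, and hearts were taken late in a later pregnancy. The length of exposure therefore differs between the labels and the study.

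Methionine is turned into S-adenosylmethionine (SAM), the methyl donor of most methylation reactions, by methionine adenosyltransferase, whose catalytic subunits are encoded by Mat1a (the adult liver form) and Mat2a (the form of most other tissues). Methyl transfer, by Gnmt among many enzymes, leaves S-adenosylhomocysteine (SAH), which Ahcy splits into adenosine and homocysteine. Homocysteine is methylated back to methionine by Mtr, which needs cobalamin, methylated folate and its reactivating partner Mtrr, or by Bhmt, which uses betaine and is best known from liver. It is otherwise removed by Cbs and Cth, the transsulfuration enzymes, which are abundant in liver and kidney. Mthfd1 is a cytosolic enzyme with several activities that interconverts one-carbon forms of folate.

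The promoters of Mat2a and Mat1a are shown because the genes encode alternative catalytic subunits for the same step, the entry into the cycle. Each window runs from 250 bases before to 50 bases after the start of the gene, 5′ to 3′ on the gene's strand, from RefSeq on the GRCr8 build, with each CG dinucleotide in capitals. Mat2a lies on the minus strand at chr4:106053563-106053862 and Mat1a on the plus strand at chr16:17016918-17017217.
Mat2a: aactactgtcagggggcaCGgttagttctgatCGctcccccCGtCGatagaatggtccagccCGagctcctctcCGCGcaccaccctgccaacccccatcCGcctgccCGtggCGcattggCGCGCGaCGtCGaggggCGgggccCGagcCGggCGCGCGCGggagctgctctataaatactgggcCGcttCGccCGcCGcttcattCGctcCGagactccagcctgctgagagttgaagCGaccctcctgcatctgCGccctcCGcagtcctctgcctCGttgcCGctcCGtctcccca
Mat1a: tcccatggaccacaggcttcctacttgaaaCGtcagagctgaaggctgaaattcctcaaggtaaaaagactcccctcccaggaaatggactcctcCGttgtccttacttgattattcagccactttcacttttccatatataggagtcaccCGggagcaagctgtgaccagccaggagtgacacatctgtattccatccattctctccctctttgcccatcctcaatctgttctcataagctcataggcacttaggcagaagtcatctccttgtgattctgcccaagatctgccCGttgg
The motif searched was CG, which reads the same on both strands. It occurs 34 times in the Mat2a window, more often than in 93.2% of the 33469 promoter windows of this length, and 4 times in the Mat1a window, more often than in 30.7% of them. The median over all windows was 7. Of the 10 genes 9 had a window. The other counts were 30 for Mtrr, 21 for Cbs, 17 for Ahcy and for Mtr, 15 for Gnmt and for Cth, and 12 for Bhmt. These counts describe the sequence and carry no measurement of methylation.

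Values are MAS5 signals, which are linear, and each array had a mean of 150 once 2% was trimmed at either end. The array medians were 25.8 to 29.2 on Met-fed arrays, 34.2 to 36.9 on L-NAME-fed arrays and 25.7 to 27.2 on control arrays. The ratio of 3′ to 5′ signal of beta-actin, which reads RNA integrity and labelling, had a log2 mean of 2.48 ± 0.16 (SD, n = 4) on L-NAME-fed arrays and 3.47 ± 0.14 (SD, n = 5) on control arrays (exact permutation test, two-sided, p = 0.0159, the smallest p that these group sizes allow). The median log2 change over all probe sets was 0.22 in L-NAME-fed against control hearts, 0.25 in L-NAME-fed against Met-fed hearts and 0.00 in Met-fed against control hearts. The mean log2 signal of the 18 spike-in control probe sets was 9.91 ± 0.07 (SD, n = 4) on L-NAME-fed arrays. It was 10.32 ± 0.1 (SD, n = 5) on control arrays (exact permutation test, two-sided, p = 0.0159). Centring each array on its median lowers every change in L-NAME-fed against control hearts by 0.42. Background was set as the highest signal among 27 control probe sets against bacterial genes on the same array, which was 2.44 to 4.96 over the 13 arrays and lay under 72.6 to 83.6% of the probe sets. A stricter level was the array's own median.

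Expression in the heart was seen for the SAM-forming Mat2a, for Ahcy, for Mtrr and for Mthfd1, whose brightest probe sets were above both levels on all 13 arrays. Mat1a, Mtr, Cbs and Cth were above the bacterial controls on all 13 arrays but at or under the array median on nearly all of them. The exceptions were 1 array each for Mat1a and Cbs, which was control replicate 4 both times. Gnmt passed the bacterial controls on 7 of 13 arrays and Bhmt on 0 of 13. In each group 8 of the 10 genes were above the bacterial controls on every array of the group, and 4 of 10 were above the array median. Signals of different probe sets also depend on their probes, so their order is not an order of mRNA levels, and a dim probe set does not show that the mRNA is absent.

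**Figure D1:**
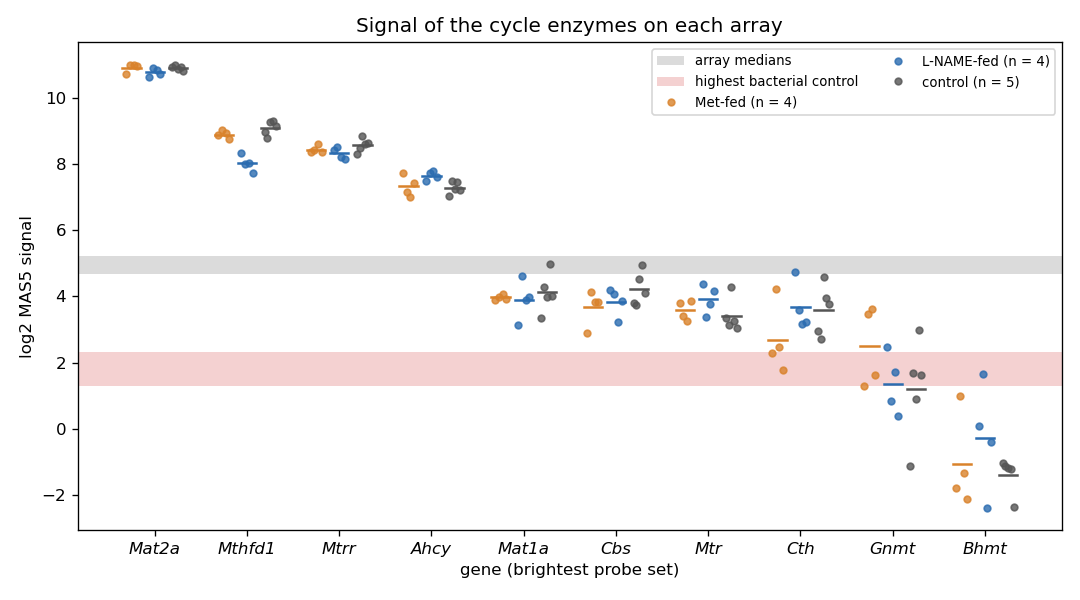
Log2 MAS5 signal (vertical axis) of the brightest probe set of each gene (horizontal axis) on each array, 1 point per array, with group means as bars; the bands span the array medians and the highest bacterial controls over the 13 arrays. Mat2a, Mthfd1, Mtrr and Ahcy lie above both bands on all 13 arrays, while Bhmt lies under the highest bacterial control of its own array on every array.

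For scale, marker lists of other tissues were read in the same way. Of the 11 measured genes of other organs (pancreas, pituitary and testis) 0 passed the bacterial controls on all arrays and 11 were under the array median on all arrays. Of the 11 liver genes 3 were above the array median on all arrays and 7 were under it on all arrays. The 3 were Ttr, Cyp2e1 and Hpd. Their signals in control hearts were 369.9 to 602, 56.8 to 456 and 76.5 to 242. In L-NAME-fed hearts they were 309 to 454, 52.0 to 146 and 51.1 to 119, and in Met-fed hearts 484 to 598, 216 to 329 and 62.4 to 188. Apoa1 reached 189.6 on control replicate 1. Albumin, the most abundant product of hepatocytes, had signals of 0.194 to 4.09 in Met-fed, 3.36 to 4.99 in L-NAME-fed and 0.125 to 4.41 in control hearts. All 8 measured genes of heart muscle were above the array median on all arrays, as the tissue label says.

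In Met-fed hearts no cycle enzyme passed the test. By limma 0 of 10 genes had an adjusted p under 0.05, where 0.0% of all probe sets did, and 0 of 10 had an unadjusted p under 0.05, where 10.7% of all probe sets did. The test named in the methods also gave 0 of 10 adjusted calls. The adjusted p ranged from 0.55 for Cth to 0.987 for Mat2a, and the median log2 change was -0.06 over the 10 genes and 0.00 over all probe sets. The 95% intervals of the fold in Met-fed against control hearts were 0.897 to 1.12 for Mat2a, 0.777 to 1.07 for Mtrr, 0.825 to 1.27 for Ahcy and 0.721 to 1.04 for Mthfd1. For the dimmer genes they were wider, from 0.419 to 1.11 for Cbs, 0.253 to 1.13 for Cth and 0.807 to 7.43 for Gnmt.

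In L-NAME-fed hearts the folate enzyme Mthfd1 fell to 0.477 of the control signal. It was the gene called among 10 by its brightest probe set, so that 0 were higher and 1 was lower, where 45.7% of all probe sets were called, 28.7% higher and 17.0% lower. The median log2 change was -0.03 over the 10 genes and 0.22 over all probe sets. Over all 13 probe sets of the members 3 were called, with the second probe set of Mat2a higher and the second of Mtrr and that of Mthfd1 lower. The count of 1 became 4 after quantile normalization (Mat2a higher, Mtrr, Cbs and Mthfd1 lower) and 3 after median centring (Mat2a, Mtrr and Mthfd1 lower).

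Against Met-fed hearts, L-NAME-fed hearts again had 1 of 10 genes called, Mthfd1, where 40.3% of all probe sets were called, 25.4% higher and 14.9% lower. The median log2 change was 0.05 over the 10 genes and 0.25 over all probe sets. Over the 13 probe sets 3 were called, 1 higher and 2 lower, and they were the probe sets called against control. This comparison shares its L-NAME-fed arrays with the one against control.

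**Figure D2:**
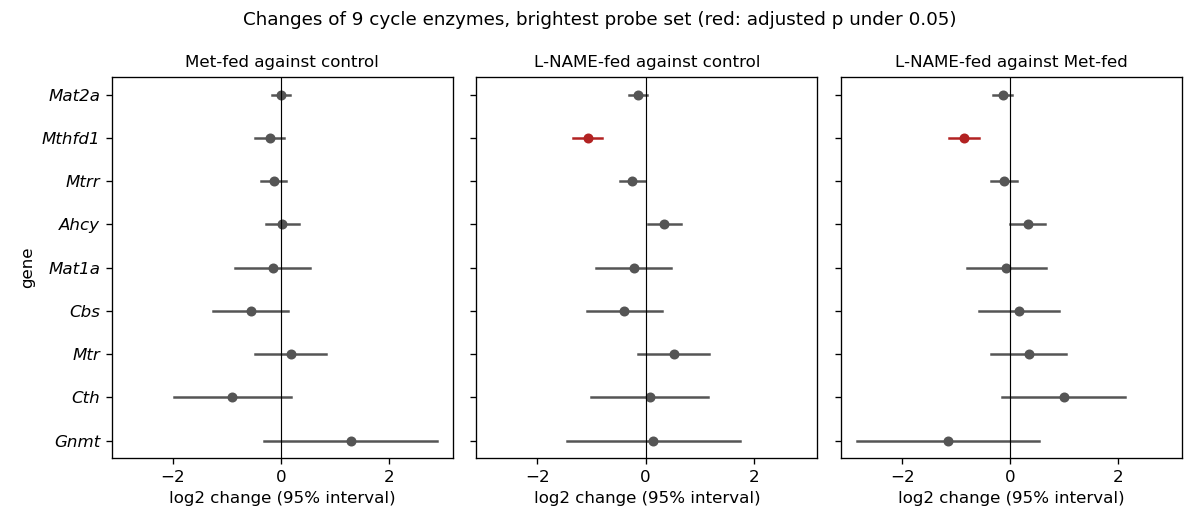
Log2 change (horizontal axis) of the brightest probe set of 9 genes in the 3 comparisons, with 95% intervals from limma; red marks an adjusted p under 0.05. The interval of Mthfd1 lies under 0 in both comparisons of L-NAME-fed hearts (-1.07 and -0.86), and all others have an adjusted p above the threshold. Bhmt, under background on every array, is left out.

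The formation of SAM was read by Mat2a and Mat1a. The brightest Mat2a probe set had signals of 1679, 2047, 2019 and 1972 in Met-fed hearts, 1559.7, 1906, 1852 and 1676 in L-NAME-fed hearts and 1935, 2019, 1857, 1971 and 1803 in control hearts. The 3 groups overlapped and the SD within a group was 0.13 or less on the log2 scale. The log2 change was 0.01 ± 0.08 (SE) in Met-fed against control hearts. In L-NAME-fed against control hearts it was -0.14 ± 0.08 and was not called (adjusted p = 0.165 in limma), while it was 0.25 (adjusted p = 0.00228) after quantile normalization and -0.56 (adjusted p = 0.000128) after median centring, so that the direction of this probe set turned with the scaling.

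The second Mat2a probe set behaved otherwise. Its signals were 24.4, 24.8, 20.4 and 28.5 in Met-fed hearts, 53.2, 52.2, 58.6 and 52.7 in L-NAME-fed hearts and 18.8, 21.4, 24.5, 20.8 and 19.2 in control hearts. Every L-NAME-fed array was above every other array, and these 4 arrays were the ones on which it passed the array median. The log2 change was 1.38 ± 0.17 in L-NAME-fed against control hearts (2.6-fold, adjusted p = 6.17e-06 in limma) and 1.15 ± 0.18 against Met-fed hearts (adjusted p = 9.04e-05), with 0.95 and 1.00 against control after median centring and quantile normalization. The third probe set had signals of 0.947 to 6.94 and passed the bacterial controls on 0 of 4 Met-fed, 2 of 4 L-NAME-fed and 3 of 5 control arrays. The probe sets of Mat2a therefore gave unlike changes in L-NAME-fed hearts, and whether their place along the transcript and the lower 3′ to 5′ ratio of these arrays had a part in it was not tested.

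Mat1a had signals of 14.9, 15.7, 16.7 and 15.2 in Met-fed hearts, 8.76, 24.6, 14.8 and 15.6 in L-NAME-fed hearts and 10.2, 19.4, 15.8, 31.7 and 16.1 in control hearts. The groups overlapped fully, and the Met-fed arrays were the most alike, with an SD of 0.07 on the log2 scale as compared to 0.59 in control hearts. The log2 change was -0.15 ± 0.33 in Met-fed and -0.22 ± 0.33 in L-NAME-fed against control hearts. Neither was called.

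**Figure D3:**
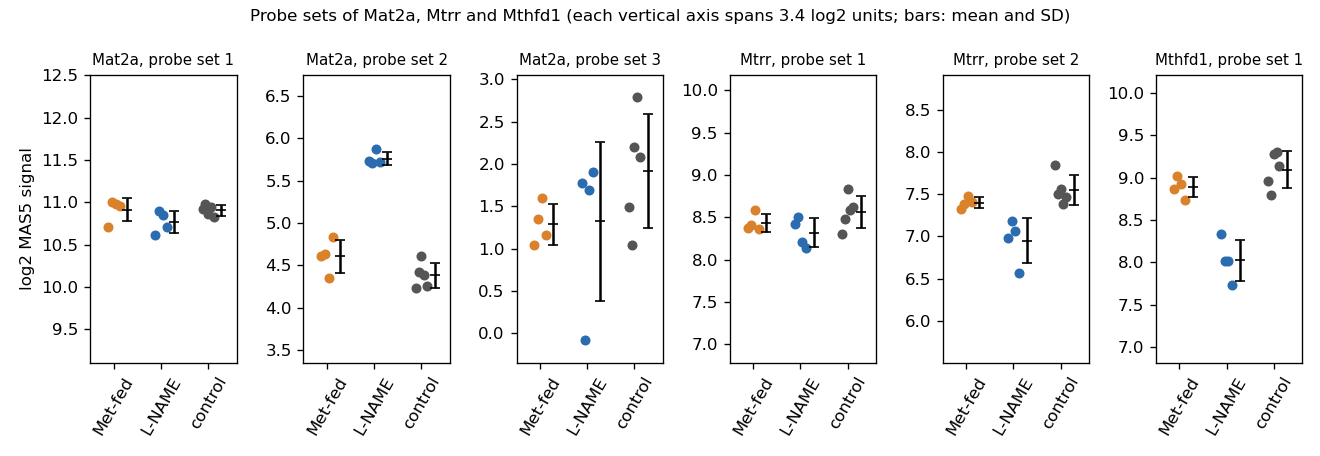
Log2 MAS5 signal (vertical axis, 3.4 log2 units in every panel) of the probe sets of Mat2a, Mtrr and Mthfd1 on Met-fed (n = 4), L-NAME-fed (n = 4) and control (n = 5) arrays, 1 point per array, with mean and SD. In the second Mat2a probe set the L-NAME-fed arrays lie at 5.71 to 5.87, above all others, and in the second Mtrr and the Mthfd1 probe sets they lie below all others. The share of all probe sets that separate in this way was not counted.

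Downstream of SAM, Gnmt, a glycine methyltransferase that disposes of excess SAM, was near background. Its signals were 2.46, 11.1, 12.2 and 3.08 in Met-fed hearts, 5.48, 1.8, 3.28 and 1.3 in L-NAME-fed hearts and 0.456, 3.17, 1.87, 7.91 and 3.1 in control hearts. It passed the bacterial controls on 3 of 4 Met-fed, 2 of 4 L-NAME-fed and 2 of 5 control arrays, and Met-fed replicates 2 and 3 were the highest of all. The log2 change of 1.29 ± 0.76 in Met-fed against control hearts was not called (adjusted p = 0.568 in limma).

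Ahcy, which removes SAH, had signals of 214, 141, 127 and 170.1 in Met-fed hearts, 178, 209, 220.2 and 192 in L-NAME-fed hearts and 130.0, 180.2, 153, 177 and 147 in control hearts. All groups overlapped. The log2 change was 0.03 ± 0.15 in Met-fed and 0.35 ± 0.15 in L-NAME-fed against control hearts (adjusted p = 0.0608 in limma), and the change in L-NAME-fed hearts became -0.07 after median centring. With the test named in the methods, with the compared groups alone or with a filter at the median signal the adjusted p of Ahcy was 0.0446, 0.028 and 0.0471.

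Return of homocysteine to methionine was read by Mtr, Mtrr and Bhmt. Mtr, methionine synthase, had signals of 13.8, 10.5, 9.6 and 14.6 in Met-fed hearts, 20.7, 10.4, 13.7 and 17.8 in L-NAME-fed hearts and 10.1, 8.78, 19.4, 9.42 and 8.17 in control hearts. All groups overlapped. Control replicate 3 was far above the other control arrays, and without it L-NAME-fed and control arrays would not overlap. The log2 change in L-NAME-fed against control hearts was 0.52 ± 0.31 (adjusted p = 0.191 in limma) with this array and 0.74 (adjusted p = 0.0499) without it, and 0.10 after median centring.

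Mtrr, the reductase that restores the cobalamin of Mtr, had signals in its brighter probe set of 332, 339, 386 and 329.6 in Met-fed hearts, 342, 363, 297 and 283 in L-NAME-fed hearts and 316, 357, 456, 384 and 394 in control hearts. The groups overlapped and the log2 change was -0.13 ± 0.11 in Met-fed and -0.25 ± 0.11 in L-NAME-fed against control hearts (adjusted p = 0.0801 in limma). The dimmer Mtrr probe set had signals of 161, 167, 179 and 170.5 in Met-fed hearts, 126, 145, 134 and 94.9 in L-NAME-fed hearts and 230.3, 180.5, 189, 167 and 177 in control hearts. Here every L-NAME-fed array was below every other array, with a log2 change of -0.60 ± 0.13 against control (adjusted p = 0.000988) and -0.46 ± 0.14 against Met-fed hearts (adjusted p = 0.0129). Both Mtrr probe sets had lower means in L-NAME-fed hearts, also after median centring (-0.67 and -1.03) and quantile normalization (-0.34 and -0.80), and with these settings both were called against control.

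Bhmt, the betaine-dependent enzyme, had signals of 0.231 to 1.97 in Met-fed hearts, 0.191 to 3.15 in L-NAME-fed hearts and 0.196 to 0.489 in control hearts. As all of these were under the bacterial controls of their arrays, no fold is given.

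Mthfd1 had signals of 464, 519, 488 and 427 in Met-fed hearts, 321, 259, 260.0 and 212 in L-NAME-fed hearts and 496, 442, 624, 629 and 564 in control hearts. All 4 L-NAME-fed arrays were below all 9 others, while Met-fed and control arrays overlapped. The share of all probe sets with such a separation was not counted, here or for the second Mat2a and dimmer Mtrr probe sets. Of all probe sets 45.7% were called in L-NAME-fed against control hearts. The log2 change was -1.07 ± 0.13 in L-NAME-fed against control hearts (95% interval of the fold 0.396 to 0.573, adjusted p = 3.75e-06 in limma) and -0.86 ± 0.13 against Met-fed hearts (adjusted p = 8.11e-05). It was -0.21 ± 0.13 in Met-fed against control hearts (adjusted p = 0.588). Mthfd1 stayed called in L-NAME-fed hearts with each array left out (-1.17 to -0.97 against control), with median centring (-1.49) and with quantile normalization (-1.15).

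Transsulfuration was read by Cbs, which joins homocysteine to serine, and Cth, which splits the product into cysteine. Cbs had signals of 7.42, 17.4, 14.1 and 14.4 in Met-fed hearts, 18.2, 16.9, 9.33 and 14.4 in L-NAME-fed hearts and 13.8, 13.3, 23.2, 31.2 and 17.2 in control hearts. Cth had signals of 4.87, 18.7, 5.54 and 3.4 in Met-fed hearts, 26.6, 12.1, 8.87 and 9.32 in L-NAME-fed hearts and 7.78, 6.54, 23.8, 15.4 and 13.5 in control hearts. For both genes control replicates 3, 4 and 5 were above control replicates 1 and 2, and the groups overlapped. The log2 change in Met-fed against control hearts was -0.55 ± 0.33 for Cbs and -0.90 ± 0.51 for Cth (adjusted p = 0.576 and 0.55 in limma). In L-NAME-fed against control hearts it was -0.39 ± 0.33 for Cbs and 0.08 ± 0.51 for Cth (adjusted p = 0.367 and 0.911), and Cbs reached -0.90 (adjusted p = 0.0333) after quantile normalization.

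Genes of the kidney tubule were read beside these dim signals. Kap, an androgen-regulated protein of the proximal tubule, had signals of 5.42, 40.9, 66.4 and 29.6 in Met-fed hearts, 4.63, 3.29, 0.858 and 0.14 in L-NAME-fed hearts and 9.31, 4.43, 47.5, 80.2 and 36.2 in control hearts. Slc34a1, the phosphate carrier of the same cells, had 11.2, 29.1, 17.0 and 14.1 in Met-fed hearts, 2.86, 1.57, 2.72 and 2.9 in L-NAME-fed hearts and 2.56, 5.54, 48.0, 48.3 and 36.1 in control hearts. The control arrays with the 3 highest values of both were replicates 3, 4 and 5, as for Cbs and Cth, and within the Met-fed group Gnmt and Kap were both highest in replicates 2 and 3. Other arrays did not follow this order. Met-fed replicate 3, with the highest Kap of its group, had a Cth signal of 5.54, and control replicate 3 had less Gnmt (1.87) than control replicate 2 (3.17). The split of the control arrays was not particular to tubule genes. The adipocyte gene Adipoq had 249, 206 and 9.94 in control replicates 3, 4 and 5, and 7.22 and 0.285 in replicates 1 and 2. The liver gene Ttr went the other way, with 369.9, 375 and 398 in replicates 3, 4 and 5, and 602 and 541 in replicates 1 and 2. In L-NAME-fed hearts most signals of Kap and Slc34a1 were under the bacterial controls of their arrays, so no fold is given for them. By limma both were called lower than in control hearts and the other 4 tubule genes were not called. Over all probe sets 17.0% were called lower. The log2 change of Cth in this comparison was 0.08. The summed signal of the 6 tubule genes was 25.9 to 101 in Met-fed, 4.42 to 10.4 in L-NAME-fed and 13.4 to 192 in control hearts, and 0 of the 6 passed the bacterial controls on all arrays. The part of such RNA in the signals of Cbs, Cth and Gnmt was not tested.

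**Figure D4:**
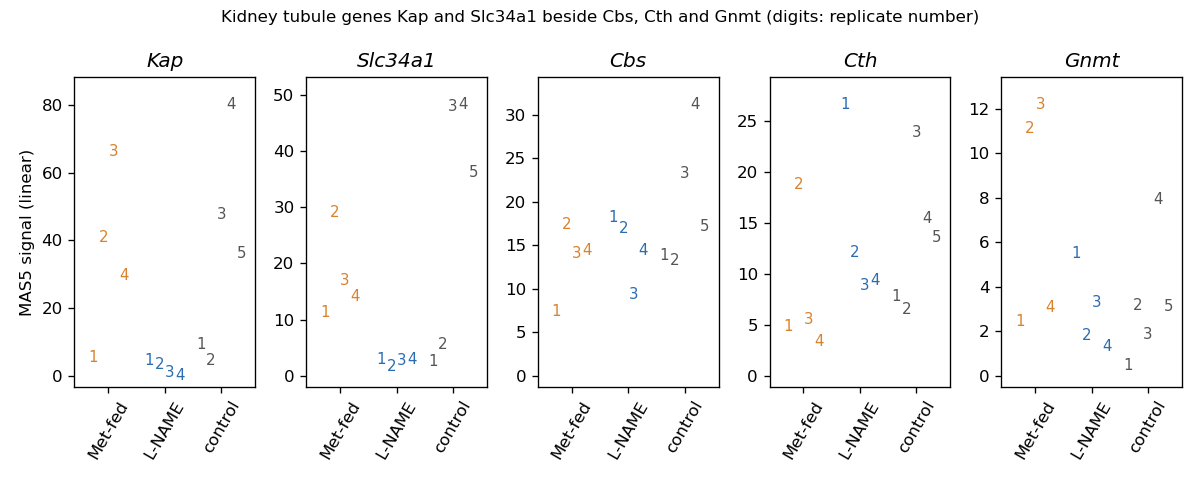
MAS5 signal on a linear vertical axis of the kidney tubule genes Kap and Slc34a1 and of Cbs, Cth and Gnmt, by group; each digit is 1 array and gives its replicate number. Control replicates 3, 4 and 5 are the highest controls for Kap, Slc34a1, Cbs and Cth.

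The reactions around the cycle were read from 7 lists with 67 measured genes, each by its brightest probe set. In Met-fed hearts 0 of the 67 were called by limma and 6 had an unadjusted p under 0.05, as did 10.7% of all probe sets. In L-NAME-fed against control hearts 21 of 67 rose and 25 fell, with a median log2 change of -0.07. Over all probe sets 28.7% rose and 17.0% fell, with a median of 0.07 for those of at least median signal and 0.41 for dimmer ones. Against Met-fed hearts 17 of 67 rose and 22 fell, where 25.4% of all probe sets rose and 14.9% fell. Named below are the 3 genes of each list with the smallest p in L-NAME-fed against control hearts. The counts per list are for the same comparison and stand beside its 28.7% higher and 17.0% lower over all probe sets.

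Among the partners of SAM formation and SAH removal 2 of 4 rose and 2 fell in L-NAME-fed hearts. Mat2b, the regulatory subunit that binds the Mat2a enzyme, had signals of 977 to 1127 in L-NAME-fed and 1300.0 to 1392 in control hearts (log2 change -0.39 ± 0.07, adjusted p = 0.000226 in limma). Ahcyl1, a relative of Ahcy that acts on calcium release, had 719 to 780.1 in L-NAME-fed and 461 to 566 in control hearts (0.57 ± 0.09), and its relative Ahcyl2 had 0.69 ± 0.16. Neither relative kept its call after median centring, with changes of 0.14 and 0.27, nor did Ahcyl2 with the mean of its 2 probe sets (0.44).

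In the folate list 5 of 19 rose and 6 fell in L-NAME-fed hearts. Slc19a1, the reduced folate carrier, had signals of 28.6 to 38.7 in L-NAME-fed and 93.7 to 108 in control hearts, a log2 change of -1.63 ± 0.15 (adjusted p = 4.04e-07 in limma). Fpgs, which adds the glutamate tail that keeps folate in cells, fell by 0.84 on the log2 scale, but the mean of its 2 probe sets gave -0.23 (adjusted p = 0.115). Atic, an enzyme of purine synthesis that uses the formyl folate made by Mthfd1, had 348 to 441 in L-NAME-fed and 181 to 221 in control hearts (1.05 ± 0.11, adjusted p = 1.37e-06).

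The cobalamin list, with genes of the supply and use of this cofactor, not all of which serve Mtr, had 2 of 8 higher and 5 lower in L-NAME-fed hearts. The cobalamin receptor Cd320 had signals of 534 to 601 in L-NAME-fed and 914 to 1151 in control hearts (-0.84 ± 0.08, adjusted p = 4.81e-07 in limma). Mmachc, which processes incoming cobalamin, had a change of -0.53 ± 0.10, and Mmut, the mitochondrial enzyme that uses the other form of the cofactor, of -0.60 ± 0.11. The mean of all 3 Mmut probe sets gave 0.26 (adjusted p = 0.048), so its direction turned with the choice of probe set.

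In the choline and betaine list, with genes around the step of Bhmt, 3 of 8 rose and 1 fell in L-NAME-fed hearts. The choline transporter Slc44a1 had signals of 412 to 585 in L-NAME-fed and 166 to 239.5 in control hearts (1.34 ± 0.17), Chka, choline kinase, had a change of 1.00 ± 0.19, and Sardh, sarcosine dehydrogenase, of 0.57 ± 0.15, which was not called after median centring (0.14) or quantile normalization (0.32). Of the methyltransferases for small molecules and damaged proteins 1 of 9 rose and 6 fell, with a median log2 change of -0.66. Over all probe sets 28.7% rose and 17.0% fell. On all arrays 7 of the 9 were above the bacterial controls. Hnmt, counted among the 6, had signals of 0.164 to 1.01 in L-NAME-fed hearts, under the bacterial controls of these arrays. Icmt, which methylates prenylated proteins, had 19.5 to 24.9 in L-NAME-fed and 46.3 to 69.0 in control hearts (-1.34 ± 0.17, adjusted p = 7.61e-06 in limma). Pcmt1, a protein repair enzyme, had a change of -0.65 ± 0.11 and As3mt, an arsenite methyltransferase, of 0.67 ± 0.13, not called after median centring (0.25). The mean of the 2 Icmt probe sets gave -0.46 and that of the 2 Pcmt1 probe sets -0.35, both still called.

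Beyond transsulfuration, 3 of 9 genes of cysteine, taurine and sulfide handling rose in L-NAME-fed hearts and 2 fell. Mpst, which forms sulfide from a cysteine derivative, had signals of 453 to 655 in L-NAME-fed and 118 to 186 in control hearts (1.88 ± 0.16, adjusted p = 1.77e-07 in limma). Tst, a mitochondrial sulfurtransferase related to Mpst, had 88.9 to 134 in L-NAME-fed and 196 to 339 in control hearts (-1.37 ± 0.16, adjusted p = 4.78e-06). Sqor, which oxidizes sulfide, had a change of 0.81 ± 0.20, which lost its call after median centring (0.38). In the list of polyamine synthesis and methionine salvage, which recycle the rest of SAM, 5 of 10 rose and 3 fell. Mri1, an isomerase of salvage, had 30.6 to 45.9 in L-NAME-fed and 119 to 164 in control hearts (-2.0 ± 0.14, adjusted p = 3.64e-08), while the polyamine enzymes Odc1 and Sms had changes of 1.08 ± 0.15 and 0.70 ± 0.09. The mean of the 2 Sms probe sets gave 1.80 and centring 0.27, both still called.

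**Figure D5:**
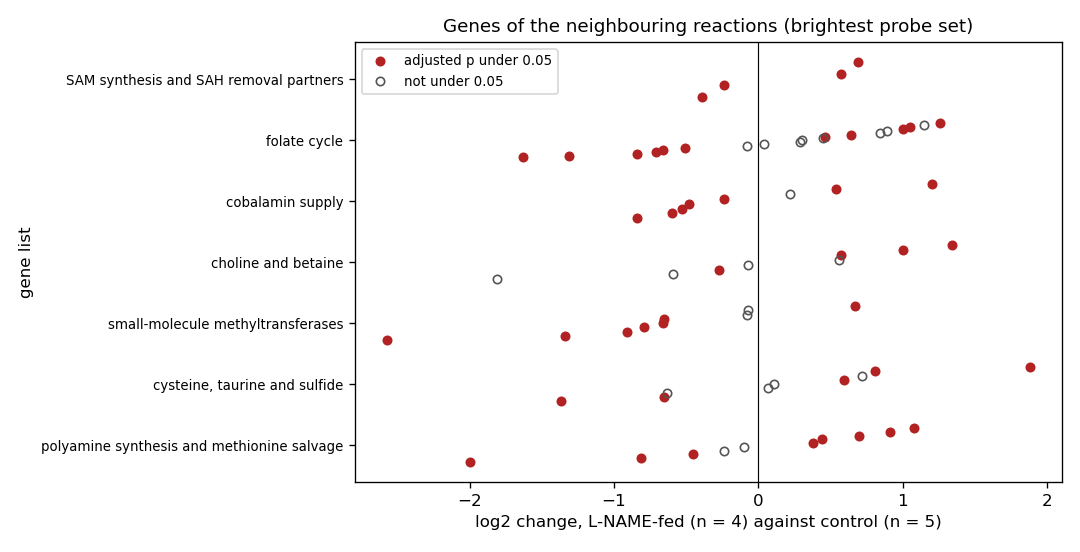
Log2 change in L-NAME-fed (n = 4) against control (n = 5) hearts (horizontal axis) of the 67 measured genes of 7 lists around the cycle, 1 point per gene by its brightest probe set; filled points have an adjusted p under 0.05 in limma. Points lie on both sides of 0 in every list. Of the 67 genes 21 were called higher and 25 lower, where 28.7% of all probe sets were called higher and 17.0% lower.

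Markers of the cell types of the heart moved in the same L-NAME-fed arrays. Of 8 heart muscle genes 7 were called lower against control (median log2 change -0.62), with a summed signal of 17999 to 20996 in L-NAME-fed and 27460.3 to 29819.7 in control hearts. All 4 endothelial genes, 2 of 5 fibroblast and 3 of 5 leukocyte genes were also called lower, and of 4 smooth muscle genes 2 were called higher and 1 lower, where 17.0% of all probe sets were called lower and 28.7% higher. In whole tissue, fewer cells of a type, less RNA per cell and a change in the signal scale of the arrays cannot be told apart. The part of these shifts and of the 3′ to 5′ ratio in the changes of Mthfd1, Mat2a, Mtrr and the listed genes was not tested. In Met-fed hearts 0 genes of these lists were called.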

How the data were processed

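Left ventricle RNA of 13 samples (4 Met-fed, 4 L-NAME-fed, 5 control) was measured on Affymetrix rat genome arrays. The intensity values deposited by the authors are MAS5 signals (version not given in the sources used here), as their processing notes say. They are linear and scaled to a trimmed mean of 150, and no further normalization was applied. The study's methods give 4 control arrays without naming them, so all 5 were used. The number of arrays limits the precision.

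Of 31099 probe sets 57 manufacturer controls were left out. The platform annotation gave 1 symbol for 20826 probe sets, several for 436 and none for 9780. Log2 signals without an offset were fitted in limma 3.58.1 (R 4.3.3) with 1 coefficient per group over all arrays, a variance that follows the signal, and Benjamini-Hochberg adjustment over 31042 probe sets at a threshold of 0.05. The script was tested on simulated data. Array measures were compared by the exact permutation test of scipy 1.17.1, whose smallest p was 0.0159 for 4 against 5 arrays and 0.0286 for 4 against 4. Figures were drawn with matplotlib 3.10.9.

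The members, the lists and the background level were chosen with earlier results of these data known. All members are named with all their probe sets, and of each list the 3 genes with the smallest p. Alternatives were array median centring, quantile normalization, a filter at a mean signal of 31.9 (the median over probe sets), offsets of 16 and 50, the methods' t-test on log2 values, a fit of the compared groups alone, a variance without a trend, a gene's mean over its probe sets, any probe set of a gene, other background levels, a replicate block and each array left out in turn. The study names a variance stabilization that was not repeated.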

Additional observations from a re-analysis of the deposited data

Results flagged for a closer look

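An array was looked for that stood apart from the rest of its group, by a gap to its neighbour that is large against the group's range, in 39 groups (13 probe sets in 3 groups). There were 4 such arrays, where chance gives about 1 in 20 groups. Control replicate 3 was the highest control for Mtr, with a log2 signal of 4.27 and a lowest control of 3.03. L-NAME-fed replicate 3 was the highest of its group for the second Mat2a probe set (5.87, with a lowest of 5.71), a gap that is small beside the change of that probe set. L-NAME-fed replicate 2 was the lowest for the dimmest Mat2a probe set (-0.08, with a highest of 1.91), and control replicate 5 was the lowest for Bhmt (-2.35, with a highest of -1.03), both among signals under or near the bacterial controls.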

How the results depend on the processing

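The calls of Mthfd1, of the second Mat2a probe set and of the dimmer Mtrr probe set in L-NAME-fed hearts kept their direction and their side of the threshold in every setting run on them. The second Mat2a probe set passed the filter at the median signal only through its L-NAME-fed arrays, so that setting does not test it. The mean of all probe sets was not run on these 2 dimmer probe sets. Against control it gave 0.22 for Mat2a (adjusted p = 0.323 in limma) and -0.42 for Mtrr (adjusted p = 0.00254). The count of members called against control was 4 with quantile normalization, 3 with median centring, and 2 with a filter at the median signal (4 members left), with the compared groups alone, with the methods' t-test and with the mean of all probe sets. It was 1 to 2 with each array left out, Ahcy being the added gene without control replicate 2, Met-fed replicate 1 or Met-fed replicate 3, Mtrr without control replicate 1 or L-NAME-fed replicate 2, and Mtr without control replicate 3. Against Met-fed hearts it was 2 with quantile normalization, 3 with median centring, 2 with the mean of all probe sets and 1 to 3 with arrays left out (3 without Met-fed replicate 1, which added Mat2a and Ahcy, and 2 without Met-fed replicate 2, which added Cth). In Met-fed against control hearts 0 members were called in every setting, and 1 probe set of all was called with a replicate block and 0 to 1 with arrays left out (1 without control replicate 1, Met-fed replicate 1 or L-NAME-fed replicate 4). Members above background were 4 in each group with the array median as the level, and 8 to 9 in Met-fed hearts with arrays left out.

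Directions that turned belonged to members that were not called, apart from Mmut (0.26 with the mean of all probe sets in L-NAME-fed against control hearts). In Met-fed against control hearts Mat2a gave -0.05 with centring, -0.02 with a replicate block and -0.13 with the mean of all probe sets, and Ahcy -0.03 with centring. In L-NAME-fed against control hearts quantile normalization gave 0.25 for Mat2a, -0.32 for Gnmt and -0.43 for Cth, centring gave -0.07 for Ahcy, -0.29 for Gnmt and -0.34 for Cth, offsets of 16 and 50 gave -0.02 and -0.01 for Gnmt, and the mean of all probe sets 0.22 for Mat2a. In L-NAME-fed against Met-fed hearts quantile normalization gave 0.19 for Mat2a, -0.54 for its dimmest probe set, -0.15 for Mtr and -0.33 for Cbs, centring gave -0.33 for that probe set, -0.05 for Ahcy, -0.02 for Mtr and -0.20 for Cbs, the mean of all probe sets 0.35 for Mat2a and an offset of 50 gave 0.001 for Mat1a. With arrays left out the Met-fed against control change ran over -0.11 to 0.14 for Ahcy, -0.37 to 0.66 for Bhmt, -0.35 to 0.06 for Mat1a and -0.02 to 0.07 for Mat2a. The L-NAME-fed against control change ran over -0.27 to 0.33 for Cth, -0.45 to 0.58 for Gnmt and -0.46 to 0.04 for Mat1a. Against Met-fed hearts it ran over -0.09 to 0.37 for Cbs, -0.30 to 0.19 for Mat1a and -0.16 to 0.50 for the dimmest Mat2a probe set. The causes were not tested.

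Same-numbered arrays shared only a number, with correlations of their deviations of -0.211 to 0.26. The replicate block left the count of members called at 0 in Met-fed against control hearts and at 1 in both comparisons of L-NAME-fed hearts. The settings for genes of the lists, and arrays left out of the counts above background, were chosen after the data were seen. Gnmt and Bhmt were under the bacterial controls on some or all arrays, so their values are printed as signals near background.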
